A study of Populus ussuriensis with 12 samples.

Results

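The class III homeodomain-leucine zipper (HD-ZIP) genes of poplar were followed in roots of the poplar *Populus ussuriensis* by RNA sequencing. The family was taken as 8 listed loci, PtrHB1 to PtrHB8, out of 39602 genes in the deposited files, and all 8 passed the filter on low counts that left 25871 genes. The names come from the list and not from the files, which carry *P. trichocarpa* gene IDs only. The numbering could not be checked against the literature, where the numbers of PtrHB4 and PtrHB7 may be exchanged, so the IDs given below define the loci. The list's names give PtrHB1 as the REVOLUTA type and PtrHB5 as POPCORONA. Which Arabidopsis type the other loci belong to was not checked here, since no sequences were used.

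Roots came from in vitro plants aged 21 days in 4 groups of 3 libraries. The labels give the group only, and libraries are numbered here 1 to 3 within a group by their place in the series. OE plants overexpressed PuHSFA4a, a class A heat shock transcription factor, and were kept on excess Zn (OE Zn) or on control medium (OE control). Wild-type plants were kept on the same media (WT Zn and WT control). The labels' protocol gives 1 week on plates and then 2 weeks with 1.2 mM zinc sulfate; it stands with every sample, controls too, and is taken here to describe the Zn groups. Neither the promoter of the transgene, the number of transgenic lines nor whether libraries came from separate plants is given by the labels. P-values therefore measure only the spread between these libraries, which may be technical.

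Class III HD-ZIP proteins are plant transcription factors with a DNA-binding homeodomain, a leucine zipper through which they dimerise, and a START domain. In Arabidopsis they guide xylem patterning, vascular cambium activity and the upper side of leaves, and a conserved microRNA family cuts their transcripts. In Arabidopsis roots this microRNA moves inward into the vascular cylinder and sets a gradient of HD-ZIP III transcripts that specifies the kinds of xylem vessel. In poplar, misregulated REVOLUTA-type and POPCORONA genes are known to alter cambium formation and lignification of stems.

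The libraries held 15594001 to 21206585 counts, and each member had 578 to 3661 counts per library. Levels are given as CPM, the usual unit for a count relative to its library's total, after TMM scaling of the totals. The locus Potri.011G071700.v3.0, taken as HSFA4a from general knowledge, had 239 to 267 CPM in OE Zn and 331 to 347 CPM in OE control. It had 32.5 to 33.1 CPM in WT Zn, and 129, 165 and 37.1 CPM in the libraries labelled WT control 1, 2 and 3. At this locus the libraries labelled WT control 1 and 2 thus lay between WT control 3 and the OE libraries. Which of these WT control libraries was the unusual one was not tested. Member calls that change without WT control 1 and 2 are given both ways. For this family OE control 1 had the lowest median log2 deviation from its group's means, -0.18, followed by OE Zn 3 with -0.12. OE control 1 lay below its group's mean log2 level in 7 of 8 members. That count was not particular to it, with 8 in WT control 2 and 7 each in OE Zn 3 and WT Zn 1. OE was higher than WT at the HSFA4a locus averaged over media (log2 fold change 2.29, edgeR adjusted p = 0.0331), but did not pass on control medium (1.62, edgeR adjusted p = 0.395) or on Zn (2.97, edgeR adjusted p = 0.0575).

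All 8 members were expressed in every library. Compared per kilobase of the gene length in the files, PtrHB7 was the most abundant, with a mean of 47.2 CPM per kb over the 12 libraries. PtrHB8 followed with 27.7, PtrHB2 with 24.2, PtrHB3 with 23.1, PtrHB5 with 19.3 and PtrHB6 with 18.9 CPM per kb. The least abundant were PtrHB4 with 11.2 and PtrHB1, the REVOLUTA type, with 9.74 CPM per kb. PtrHB1 thus stood at the percentile 57.2 of all genes tested on this scale and PtrHB7 at 91.4. PtrHB7 was 4.84 times as abundant as PtrHB1, or 3.94 times between the highest and the lowest member with the authors' FPKM values, which put PtrHB4 lowest.

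The top of the order was the same in all 4 groups. Every library of a group held more PtrHB7 per kb than any library of that group held of the next member. On Zn the next was PtrHB8, which stood at 33.3 ± 2.83 CPM per kb in OE Zn and 31.4 ± 2.71 in WT Zn (SD, n = 3), above PtrHB2 without overlap in both. On control medium PtrHB8 stood at 23.6 ± 2.18 CPM per kb in OE and 22.6 ± 1.12 in the libraries labelled WT control (SD, n = 3). There it lay in a middle group with PtrHB2, PtrHB3, PtrHB5 and PtrHB6, in which neighbours in the order overlapped. PtrHB4 and PtrHB1 lay below these on both media and overlapped each other in 3 groups, but not in OE Zn, where PtrHB4 reached 13.4 ± 1.23 CPM per kb and PtrHB1 9.96 ± 0.782 (SD, n = 3).

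**Figure D1:**
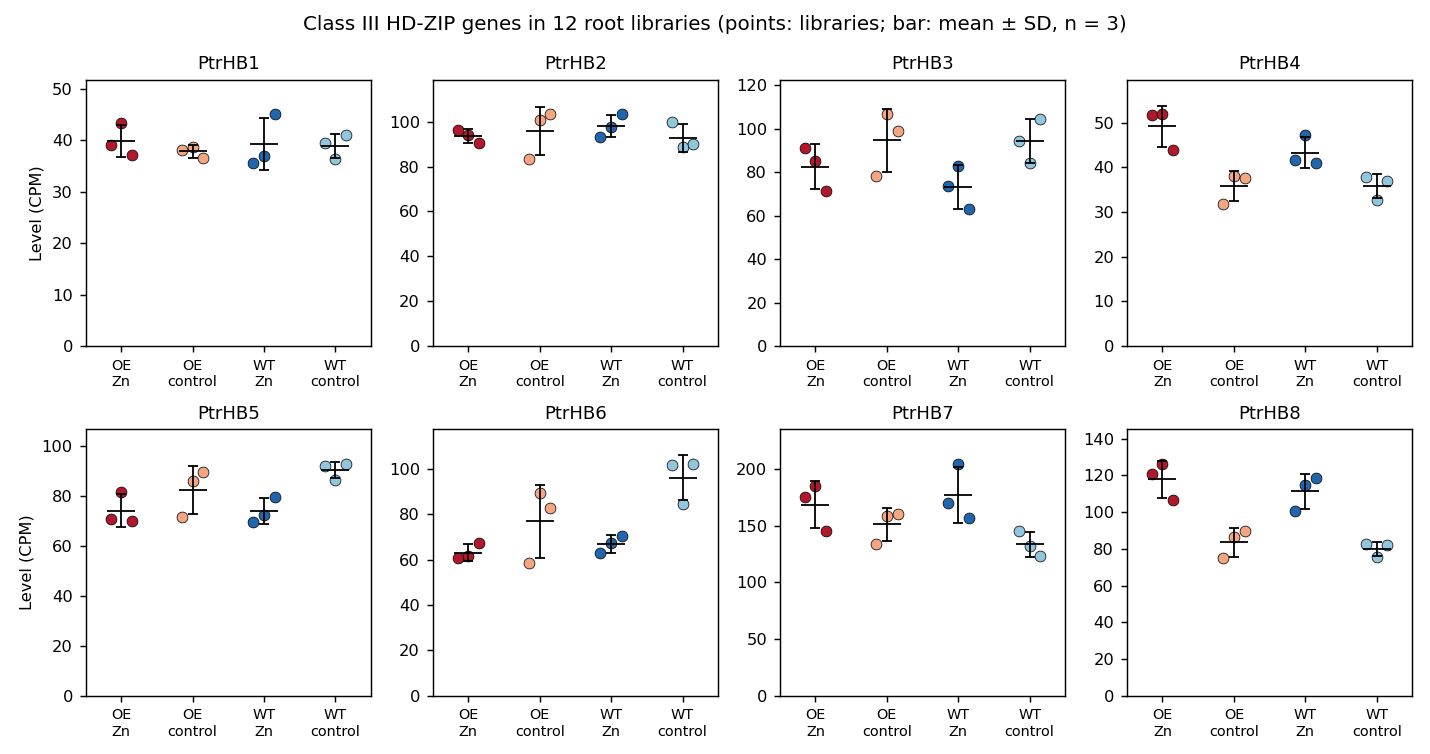
Level of each member (CPM, vertical axis from 0) in the 3 libraries of each group, with mean and SD. PtrHB8 stood at 106.7 to 126.1 CPM in OE Zn and 100.4 to 118.7 CPM in WT Zn, above all 6 libraries labelled control, while PtrHB1 and PtrHB2 overlapped between media in both genotypes.

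The comparison of Zn with control medium asks how root genes changed under excess Zn. The family split. Averaged over both genotypes, PtrHB4, PtrHB7 and PtrHB8 rose, PtrHB3, PtrHB5 and PtrHB6 fell, and PtrHB1 and PtrHB2 did not pass the test (edgeR quasi-likelihood, Benjamini-Hochberg adjusted p under 0.05). The changes were small, from 0.756-fold for PtrHB6 to 1.40-fold for PtrHB8. In this comparison 40.0% of the 25871 genes tested passed, 20.6% as higher and 19.5% as lower, and 49.1% of the 5422 genes within the members' range of mean CPM, so the count of 6 of 8 stands against a high background. The median log2 fold change was 0.033 for the members and 0.0067 for all genes, and the median absolute value was 0.28 for the members and 0.23 for all genes.

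PtrHB8 (Potri.006G237500.v3.0; chromosome 6, 24667224 to 24674749, minus strand; positions follow the files, and no source names their build) rose in both genotypes. It stood at 121, 126 and 107 CPM in OE Zn, against 74.8, 86.2 and 89.4 CPM in OE control. In WT Zn it stood at 100, 115 and 119 CPM, against 82.7, 75.5 and 82.0 CPM in the libraries labelled WT control. All 6 Zn libraries lay above all 6 libraries on control medium. The change was 1.41-fold in OE (log2 fold change 0.50, SE 0.091, edgeR adjusted p = 0.00358) and 1.39-fold in WT (log2 fold change 0.47, SE 0.091, edgeR adjusted p = 0.00222). When WT control 1 and 2 were left out, the change in WT was 0.44 on the log2 scale and missed the threshold (edgeR adjusted p = 0.052).

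PtrHB4 (Potri.018G045100.v3.0; chromosome 18, 4122412 to 4129941, plus strand) ran close to PtrHB8 at a lower level. It stood at 51.7, 51.8 and 44.0 CPM in OE Zn, against 31.9, 38.0 and 37.5 CPM in OE control, and rose 1.37-fold (log2 fold change 0.46, SE 0.098, edgeR adjusted p = 0.0079). In WT Zn it stood at 41.6, 47.2 and 41.0 CPM, against 37.8, 32.8 and 37.0 CPM in the libraries labelled WT control. The WT groups did not overlap either, but the change of 0.27 on the log2 scale (SE 0.097) missed the threshold (edgeR adjusted p = 0.0529). It passed in WT without OE control 1 (0.0464) or without OE Zn 3 (0.0396), 2 libraries that enter that comparison only through the shared fit (edgeR adjusted p); with upper-quartile scaling it passed as well (edgeR adjusted p = 0.0403).

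PtrHB7 (Potri.001G372300.v3.0; chromosome 1, 38645940 to 38653027, plus strand), the most abundant member, rose in WT. Its level was 170, 204 and 157 CPM in WT Zn, against 145, 132 and 124 CPM in the libraries labelled WT control. The groups did not overlap, and the change was 1.33-fold (log2 fold change 0.41, SE 0.117, edgeR adjusted p = 0.0198). This call was lost without the library labelled WT control 2 (edgeR adjusted p = 0.0607), WT control 3 (0.0843) or WT Zn 2 (0.1). It was lost as well when WT control 1 and 2 were left out together (edgeR adjusted p = 0.0713), where the log2 fold change was 0.52. In OE the same gene stood at 175, 185 and 146 CPM on Zn, against 134, 159 and 160.5 CPM on control medium. These groups overlapped, and the difference was 0.16 on the log2 scale (SE 0.117, edgeR adjusted p = 0.384).

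PtrHB6 (Potri.003G050100.v3.0; chromosome 3, 7359920 to 7368598, plus strand) had the largest fall in the family. It stood at 62.9, 67.3 and 70.4 CPM in WT Zn, against 102, 84.7 and 102 CPM in the libraries labelled WT control. All WT Zn libraries lay below, and the level on Zn was 0.695 times that on control medium (log2 fold change -0.52, SE 0.132, edgeR adjusted p = 0.0109). It was the only member still called in WT when WT control 1 and 2 were left out (edgeR adjusted p = 0.0459). In OE it stood at 60.6, 61.5 and 67.3 CPM on Zn, against 58.45, 89.3 and 82.8 CPM on control medium. OE control 1 was the lowest library of both groups, and the difference of -0.28 on the log2 scale (SE 0.133) did not pass (edgeR adjusted p = 0.167). Without OE control 1 it was -0.46 and passed (edgeR adjusted p = 0.00889).

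PtrHB5 (Potri.001G188800.v3.0; chromosome 1, 16696483 to 16705106, minus strand), POPCORONA, fell in WT. It stood at 69.8, 72.6 and 79.8 CPM in WT Zn, against 92.1, 86.7 and 92.9 CPM in the libraries labelled WT control, without overlap. The level on Zn was 0.818 times that on control medium (log2 fold change -0.29, SE 0.092, edgeR adjusted p = 0.0317). The call was lost without the library labelled WT control 1 (edgeR adjusted p = 0.077), WT control 3 (0.0775), WT Zn 1 (0.104) or WT Zn 2 (0.0849). With WT control 1 and 2 both left out it was lost too (edgeR adjusted p = 0.124), although the log2 fold change was then -0.33. The call averaged over genotypes (0.858-fold, edgeR adjusted p = 0.0172) was also lost there (edgeR adjusted p = 0.0516). In OE it stood at 70.7, 81.8 and 69.95 CPM on Zn, against 71.5, 86.0 and 89.8 CPM on control medium, and the difference of -0.15 on the log2 scale (SE 0.093) did not pass (edgeR adjusted p = 0.286).

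PtrHB3 (Potri.011G098300.v3.0; chromosome 11, 11974839 to 11982565, minus strand) was the least certain of the 6. It stood at 91.3, 85.2 and 71.2 CPM in OE Zn, against 78.5, 106.6 and 99.1 CPM in OE control. In WT Zn it stood at 73.8, 82.96 and 62.9 CPM, against 94.2, 84.3 and 105 CPM in the libraries labelled WT control. The OE groups overlapped and the WT groups did not. The log2 fold change was -0.20 in OE (SE 0.137, edgeR adjusted p = 0.355) and -0.37 in WT (SE 0.137, edgeR adjusted p = 0.0638), and averaged over genotypes it was -0.28 (SE 0.097, edgeR adjusted p = 0.0362). In WT it passed with DESeq2 (DESeq2 adjusted p = 0.042), in a fit of the WT groups alone (edgeR adjusted p = 0.0481), without OE control 1 (0.0319) and without WT Zn 2 (0.0403). The averaged call was lost with upper-quartile scaling (edgeR adjusted p = 0.0505). It was also lost without WT control 1, WT control 3, OE control 2, OE control 3, WT Zn 1, WT Zn 3, OE Zn 2 or OE Zn 3, each left out alone (edgeR adjusted p 0.0555 to 0.087).

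PtrHB1 (Potri.004G211300.v3.0; chromosome 4, 21883132 to 21891899, plus strand) and PtrHB2 (Potri.009G014500.v3.0; chromosome 9, 2486041 to 2495098, plus strand) did not pass in either genotype. PtrHB1 stood at 38.95, 43.2 and 37.2 CPM in OE Zn and 38.1, 38.7 and 36.5 CPM in OE control. Its WT levels were 35.6, 37.0 and 44.97 CPM on Zn and 39.5, 36.3 and 40.9 CPM in the libraries labelled WT control. PtrHB2 lay between 90.4 and 96.4 CPM in OE Zn and between 83.6 and 103 CPM in OE control. In WT it lay between 93.3 and 103 CPM on Zn and between 88.5 and 99.9 CPM in the libraries labelled WT control. All these groups overlapped. Averaged over genotypes, the 95% interval of the ratio of Zn to control ran from 0.932 to 1.14 for PtrHB1 and from 0.930 to 1.11 for PtrHB2, so changes beyond that size lie outside the intervals.

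By genotype, 2 members passed in OE, both higher, where 17.1% of all genes passed, 8.52% as higher and 8.54% as lower, and 21.0% of the genes within the members' range of mean CPM. In WT 4 members passed, 2 higher and 2 lower, where 29.9% of all genes passed, 15.3% as higher and 14.5% as lower, and 39.3% of the genes within the members' range of mean CPM. Leaving out WT control 1 and 2 brought the count in WT to 1, and leaving out WT control 3 brought it to 2. The OE groups did not overlap in 2 members and the WT groups in 6, where 36.8% of all genes in OE and 44.5% in WT did not overlap. PtrHB8 was the only member that passed in both genotypes.

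**Figure D2:**
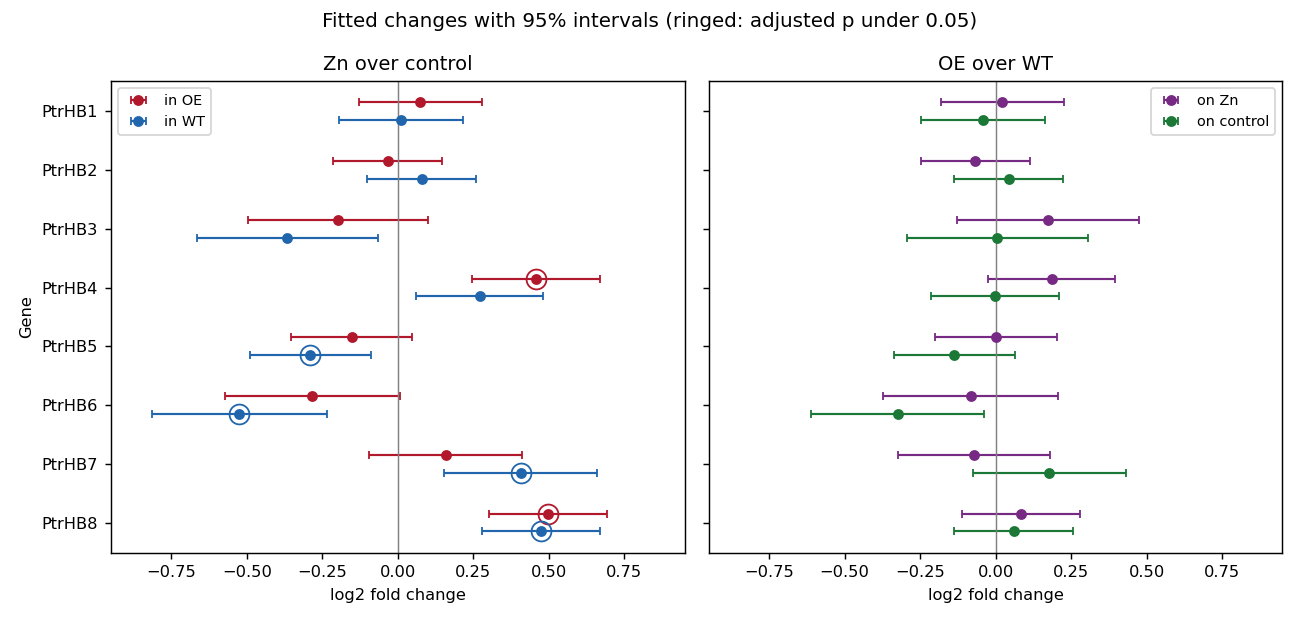
Fitted log2 fold change of each member with its 95% interval (horizontal axis), for Zn over control in OE and in WT (left) and for OE over WT on Zn and on control medium (right); rings mark an adjusted p under 0.05. Rings stand at PtrHB4 and PtrHB8 in OE and at PtrHB5 to PtrHB8 in WT, and none stands in the right panel.

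Ratios between members within a library do not depend on how libraries are scaled. The pairs given here were chosen after their values were seen, so the ratios are a description. The log2 ratio of PtrHB7 to PtrHB3, per kb, was 1.10, 1.28 and 1.19 in OE Zn, against 0.931, 0.734 and 0.854 in OE control. It was 1.37, 1.46 and 1.48 in WT Zn, against 0.781, 0.808 and 0.398 in the libraries labelled WT control. The ratio was higher on Zn without overlap in both genotypes. The log2 ratio of PtrHB8 to PtrHB6 was 1.07 ± 0.202 in OE Zn and 0.316 ± 0.204 in OE control, and 0.909 ± 0.0492 in WT Zn and -0.0846 ± 0.0826 in the libraries labelled WT control (SD, n = 3). PtrHB6 and PtrHB8 were thus nearly level per kb in WT on control medium, while on Zn PtrHB8 was the higher in every library. Such a comparison of levels depends on the gene lengths used. By the authors' FPKM, PtrHB6 stood at 28.6 ± 3.85 in the libraries labelled WT control and PtrHB8 at 24.8 ± 1.47 (SD, n = 3). In OE control PtrHB8 was also the higher in every library, by a smaller log2 ratio of 0.532, 0.126 and 0.289.

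**Figure D3:**
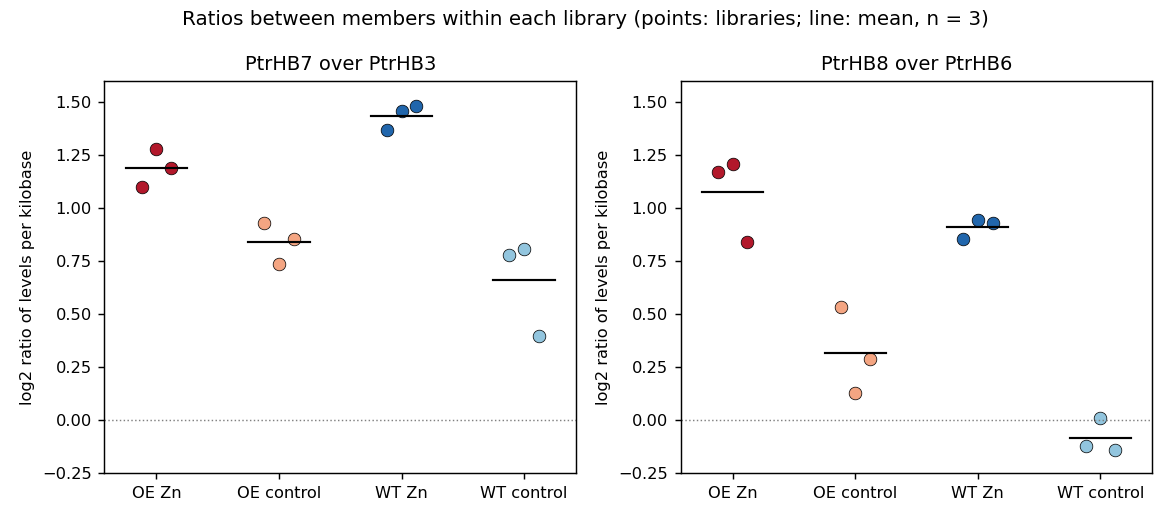
Log2 ratio of levels per kilobase between pairs of members in each library (vertical axis), by group, with the group mean as a line; the dotted line marks equal levels. On Zn the ratio of PtrHB7 to PtrHB3 ran from 1.10 to 1.48, and on control medium from 0.398 to 0.931.

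The summed level of the family overlapped between media in both genotypes, while the shares held by PtrHB3, PtrHB4, PtrHB5 and PtrHB8 did not. The sum over the 8 members was 187 ± 14.2 CPM per kb in OE Zn and 177 ± 20.1 in OE control, and 185 ± 10.9 in WT Zn and 177 ± 9.78 in the libraries labelled WT control (SD, n = 3). The ranges were 171 to 198 in OE Zn and 154 to 189 in OE control, and 176 to 197 in WT Zn and 166 to 185 in the libraries labelled WT control. Within that sum, PtrHB8 took 17.8% ± 0.182 in OE Zn and 13.4% ± 0.445 in OE control, and 17.0% ± 1.19 in WT Zn and 12.8% ± 0.158 in the libraries labelled WT control (SD, n = 3). PtrHB6 took 8.51% ± 1.16 in OE Zn and 10.8% ± 1.16 in OE control, and 9.03% ± 0.552 in WT Zn and 13.6% ± 0.759 in the libraries labelled WT control (SD, n = 3). Its share overlapped between media in OE, with 7.77% to 9.84% on Zn and 9.51% to 11.8% on control medium, but not in WT. PtrHB7 held the largest share in every group, on average 27.0% in OE Zn and 25.6% in OE control, and 28.6% in WT Zn and 22.6% in the libraries labelled WT control. In bulk roots, fewer cells that express a gene and less of its RNA per cell cannot be told apart.

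The comparison of OE with WT asks what PuHSFA4a changed. No member passed on either medium or averaged over media with edgeR, DESeq2 or limma-voom. With edgeR 0 of the 25871 genes (0%) passed on each medium, while 2296 had an unadjusted p under 0.05 on control and 1845 on Zn; DESeq2 called 83 and 63 genes. Averaged over media edgeR called 6 genes, 0.0232% of those tested, 0.0155% as higher and 0.00773% as lower, and DESeq2 184. Among the members, 1 had an unadjusted edgeR p under 0.05 on control medium, 0 on Zn and 0 averaged over media. That one was PtrHB6, at 76.8 ± 16.3 CPM in OE control and 96.2 ± 9.96 CPM in the libraries labelled WT control (SD, n = 3). Its log2 fold change was -0.32 (SE 0.132, edgeR unadjusted p = 0.0303, adjusted p = 0.514), and the groups overlapped. OE control 1 was the lowest library, and without it the log2 fold change was -0.16 (edgeR adjusted p = 0.976).

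On control medium the highest log2 fold change of OE over WT was 0.18 at PtrHB7 (SE 0.117, edgeR adjusted p = 0.698). On Zn the values ran from -0.083 at PtrHB6 to 0.19 at PtrHB4 (SE 0.097, edgeR adjusted p = 0.711), and PtrHB4 stood at 49.2 ± 4.5 CPM in OE Zn, against 43.3 ± 3.46 CPM in WT Zn (SD, n = 3). No member was free of overlap between genotypes on either medium, where 14.7% of all genes on control medium and 12.8% on Zn did not overlap. The 95% intervals of the ratio of OE to WT, over all members, reached from 0.654 to 1.35 on control medium and from 0.773 to 1.39 on Zn. Averaged over media the widest bounds were 0.754 and 1.23.

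Whether the response to Zn differed between genotypes was tested as an interaction. No member passed (edgeR adjusted p from 0.795 to 0.981), 0 had an unadjusted p under 0.05, and edgeR called 0 of all genes (0%), with 1627 at an unadjusted p under 0.05. DESeq2 called 4 of all genes and no member, and limma-voom no member. The lowest value was at PtrHB7, whose log2 response was 0.25 smaller in OE than in WT (interaction -0.25, SE 0.165, edgeR adjusted p = 0.795), and it was -0.14 without WT Zn 2. The highest was at PtrHB6, whose fall was smaller in OE (interaction 0.24, SE 0.187, edgeR adjusted p = 0.825). That value was 0.077 without OE control 1 and 0.37 without OE control 2. The calls made in WT and not in OE therefore do not show a difference between the genotypes.

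The members' profiles over the 12 libraries were compared by Pearson's r of log2(CPM + 0.5), as a description, since the libraries share the Zn contrast. PtrHB4 and PtrHB8 had the highest r, 0.933, and PtrHB5 and PtrHB6 followed with 0.881. PtrHB7 ran with PtrHB4 at 0.789 and with PtrHB8 at 0.778. PtrHB3 ran with PtrHB5 at 0.626 and with PtrHB6 at 0.617. Between the rising and the falling members all r were below 0, from -0.571 for PtrHB6 and PtrHB8 to -0.131 for PtrHB3 and PtrHB7. These were 9 pairs, and the rising and falling sets were formed from the Zn changes in these same libraries. The signs of these r over the 12 libraries therefore follow in part from that choice. After each library was set against its group mean, all 9 were above 0, from 0.249 to 0.913. PtrHB3 and PtrHB4 then had an r of 0.913, PtrHB5 and PtrHB8 0.874 and PtrHB3 and PtrHB7 0.723. The lowest was that of PtrHB6 and PtrHB7, and these members did not move together in every library. In WT Zn 3, PtrHB3, PtrHB4 and PtrHB7 lay below their group means, at log2 deviations of -0.208, -0.075 and -0.166. PtrHB5, PtrHB6 and PtrHB8 lay above theirs there, at 0.109, 0.0762 and 0.0967. WT control 2 lay below its group mean in 8 of 8 members, and OE control 1, OE Zn 3 and WT Zn 1 in 7 each. The r between members share the scaling of the libraries, and its part in them was not tested.

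**Figure D4:**
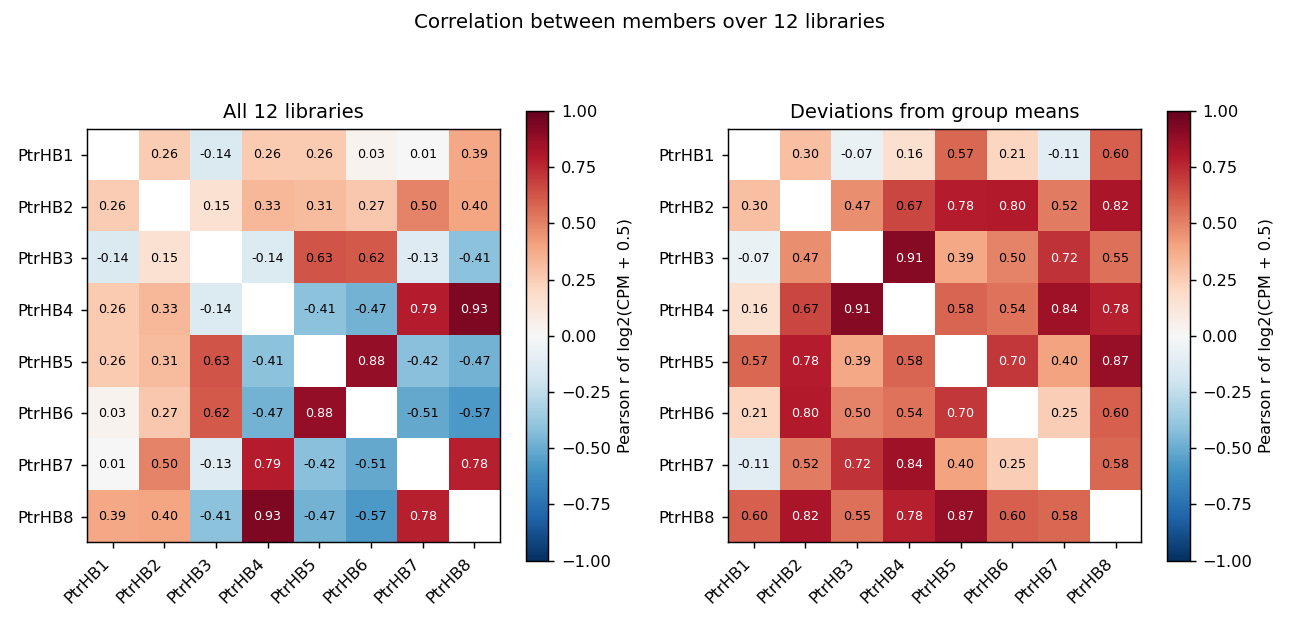
Pearson's r between members over 12 libraries, on log2(CPM + 0.5) (left) and on deviations from group means (right); red is positive and blue negative. PtrHB4 and PtrHB8 stand at 0.933 on the left, and PtrHB3 and PtrHB4 move from -0.139 on the left to 0.913 on the right.

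Outside the family, the gene most like each member was sought among the 18700 other genes that averaged 5 CPM or more. The highest r per member ran from 0.887 for PtrHB2 to 0.979 for PtrHB6. Potri.010G070400.v3.0 (chromosome 10) ran with PtrHB6 at 0.979, and at 0.955 after group means were removed, and Potri.002G186900.v3.0 (chromosome 2) with PtrHB5 at 0.965 and 0.964. Both were lower on Zn, averaged over genotypes, with log2 fold changes of -0.17 and -0.32. Potri.014G070900.v3.0 (chromosome 14) ran with PtrHB8 at 0.969 and 0.918, and Potri.010G045600.v3.0 (chromosome 10) with PtrHB4 at 0.947 and 0.785. Both were higher on Zn, with log2 fold changes of 0.42 and 0.25. The files pair these IDs with no names. With Spearman's rho in place of r another gene came first for every member but PtrHB6, and with candidates from 1 CPM upward for PtrHB7 and PtrHB8. A best match among so many genes over 12 libraries is high by selection. The same libraries carry the Zn contrast, so the direction of the matches on Zn follows in part from that selection and is a description.

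Other genes of vascular development were read from lists of IDs taken from general knowledge, which the files do not annotate. A list of 5 secondary wall cellulose synthase loci, which build the cellulose of xylem cell walls, fell with Zn. Averaged over genotypes 5 of 5 passed as lower, with log2 fold changes of -1.74 to -0.956 and a median of -1.55. Of all genes 19.5% passed as lower there, and their median was 0.0067. By genotype 4 of 5 passed as lower in OE, where 8.54% of all genes did, and 5 of 5 in WT, where 14.5% did. Their summed level was 71.0 to 112 CPM in OE Zn and 171 to 241 CPM in OE control, and 52.4 to 109 CPM in WT Zn and 200 to 303 CPM in the libraries labelled WT control. These falls were larger than that of any HD-ZIP III member. Whether a changed share of xylem cells in the roots moved with them was not tested.

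The cambium list held 4 loci for the PXY receptor kinase and the WOX4 homeobox factor, which maintain dividing cambium cells. Of these 3 passed as lower averaged over genotypes, with a median log2 fold change of -0.43 over the list. The remaining 1 did not pass and had a log2 fold change of 0.294. By genotype 1 of 4 passed as lower in OE, where 8.54% of all genes did, and 1 of 4 in WT, where 14.5% did. Averaged over genotypes, 3 of 10 loci for wood NAC factors, which switch on secondary wall formation, passed as higher, 3 as lower and 4 did not pass. Their log2 fold changes ran from -1.76 to 3.71, with a median of 0.15. In the same comparison 20.6% of all genes passed as higher and 19.5% as lower. None of the 4 loci for wood MYB factors, which act below the NAC factors, passed with edgeR, and their lowest adjusted p was 0.0582. The summed level of the MYB list was 3.40 to 6.83 CPM in OE Zn and 4.25 to 5.48 CPM in OE control, and 3.46 to 6.38 CPM in WT Zn and 5.61 to 6.08 CPM in the libraries labelled WT control, so these loci were measured with few counts. No gene of any of these 4 lists passed between genotypes on either medium with edgeR, where 0 of the 25871 genes (0%) passed, so this says nothing particular about the lists.

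Counting could blur 2 members with a gene on the other strand. PtrHB6 overlaps Potri.003G050000.v3.0 over 565 bases and PtrHB7 overlaps Potri.001G372200.v3.0 over 1650 bases. Both partners lie on the minus strand and reached at most 0.116 and 0.351 CPM in any library, far below the members. Because the strand setting is not given, these low values cannot show whether reads in the overlaps were lost to both genes. Poplar keeps many genes as close duplicates. PtrHB4 with PtrHB8 and PtrHB3 with PtrHB7 may be such pairs, and so may others among the members. No pairing was checked here. How reads matching more than 1 locus were counted is not given, so reads could be split between members.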

How the data were processed

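Per the labels' protocols, RNA was extracted from roots by the CTAB method and made into TruSeq libraries. The submitters' processing notes name TopHat2 2.1.1 and HTSeq 0.6.0. No source used here gives the build, the strand setting or the counting of multi-mapping reads. The authors deposited 1 file per library with a count, a normalized value and an FPKM value for each gene, per the file headers. The deposited counts are whole but were treated as estimated counts, since 31.2% to 32.4% of detected genes lie 1 above the count that the authors' normalized signal implies (within 0.02). The authors' FPKM served only to order levels.

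Counts were filtered with filterByExpr, scaled by TMM and tested in 1 fit of 4 group means over 12 libraries (8 residual degrees of freedom) with edgeR 4.0.16 in R 4.3.3, robust quasi-likelihood, adjusted over all 25871 genes. SE is the absolute log2 fold change over the square root of F; 95% intervals use the fit's degrees of freedom. The biological coefficient of variation was 14.2%. Replicates differed by a chi-square per degree of freedom of 5.52 to 31.5, so none was counted as a duplicate. A floor of 3 counts was 0.141 to 0.192 CPM, for counting error only. The test was checked on simulated data only for Zn averaged over genotypes, with changes larger than those of the members there. The other comparisons were not simulated. DESeq2 1.42.0, limma-voom (limma 3.58.1), other scalings and filters, implied counts, fits of compared groups and omitted libraries were tried.

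The members and lists were chosen with earlier results of these data known. All members were named; likeness took the gene with the highest r per member, of which 4 are printed; the rule also named up to 2 genes a list, but these stay unnamed, apart from the HSFA4a locus, because the files do not annotate them. Lists defined by words in gene descriptions were not run for the same reason, and the tissue was therefore not checked against markers.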

Additional observations from a re-analysis of the deposited data

How the results depend on the processing

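In every setting tried, 5 or 6 members passed for Zn averaged over genotypes, 2 or 3 passed in OE, and 0 passed for OE against WT on control, on Zn or averaged, or for the interaction. Leaving out 1 library at a time gave 2 to 6 members in WT, 2 to 3 in OE and 5 to 6 averaged. Leaving out both WT control 1 and 2 gave 1 in WT; the lone control library is then taken to vary as the other groups do. Ranked by the authors' FPKM in place of CPM per kb, the ratio of the highest to the lowest member was 3.94 in place of 4.84. PtrHB1 and PtrHB2, which did not pass, changed sign between settings. For PtrHB1 the log2 fold change in WT was -0.0653 when WT control 1 and 2 were left out and ran from -0.113 to 0.077 with 1 library left out, and averaged from -0.024 to 0.076. For PtrHB2 it ran from -0.134 to 0.021 in OE and from -0.033 to 0.046 averaged. The cause was not tested. For OE over WT the counts over all genes were 83 on control, 63 on Zn and 184 averaged with DESeq2, against 0, 0 and 6. Without WT Zn 1 edgeR called 19 on Zn and 60 averaged, and without WT control 1 and 2 it called 11 on control. For Zn in OE the count of all genes was 2200 at its lowest, when OE control 2 was left out, against 4413; leaving out OE control 3, OE Zn 1 or OE Zn 2 also lowered it by more than 1.5 times. For Zn in WT it was 4866 without WT control 1 and 2, against 7730. No paired analysis was possible because the labels give no replicate numbers; those used here only name libraries.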
